A study of Mus musculus with 2 samples.

Results

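The 10 genes described here, Cdh2, Ctnna1, Pard3, Pard6b, Prkci, Crb2, Mpp5, Numb, Numbl and Llgl1, encode proteins of the apical junctions and of cell polarity. They were listed by name, with no threshold on a value though with earlier results of these data known, and each was found by gene ID among the 43346 gene rows of the deposited tables. RNA came from forebrain of B6NCrl mouse embryos of both sexes at embryonic day 11.5, and the labels name no treatment. Replicate 1 was a pool of 109 embryos and replicate 2 a pool of 88, and RNA longer than 200 nucleotides was taken at 1 cell-equivalent per library. The labels title the assay as single-cell sequencing and cite a SmartSeq protocol, but the input was RNA of pooled tissue. There is 1 group of 2 libraries, so no test was possible, and the questions are which of these genes the libraries held, in which form, and how far the libraries differed.

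In the neural tube, progenitors are joined at the ventricular surface by a belt of adherens junctions. N-cadherin holds neighbouring cells together there, and catenins tie it to actin. The Par and Crumbs complexes mark the apical membrane next to that belt, Lgl proteins act on the basolateral side, and Numb proteins are endocytic adaptors that restrain Notch signalling and help to maintain the junctions. The tissue was taken whole, so its RNA is a mixture, and fewer cells of a type cannot be told from less RNA per cell.

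The libraries held 27395002 and 27977544 expected counts on gene rows, in the order replicate 1 and replicate 2, which is also the order of all paired values below. Of 6 forebrain markers, 5 were detected in both libraries, where detected means a TPM (transcripts per 1000000 transcripts, a level per unit of length) of at least 1. All 6 markers of neuroepithelium and radial glia were detected in both, at summed levels of 1334 and 2496 TPM, and 3 of 3 midbrain and hindbrain markers had 0 counts. Vim and Fabp7 made up most of the neuroepithelial sum, while Pax6 was higher in replicate 1, at 85.6 and 30.1 TPM, and Sox2 was at 21.8 and 18.9. All 4 markers of young neurons were detected in both libraries, at summed levels of 721 and 640 TPM. Tubb3 and Stmn2 made up most of both sums. The others moved in opposite directions, Dcx at 16.1 and 95.6 TPM and Elavl3 at 17.4 and 2.30. Markers of other cell types were detected too. Those of blood had the highest sum, at 16367 and 20634 TPM, from the embryonic globin genes Hbb-y and Hba-x. Endothelial markers, 3 of 4 detected in both, summed to 97.8 and 74.2 TPM, and those of mesenchyme and pericytes, also 3 of 4, to 336 and 250 TPM. Of 4 surface ectoderm markers, 2 were detected in both libraries and 2 in neither, and their sum was 89.0 and 13.6 TPM. Krt8 made up most of it in replicate 1, at 73.9 and 2.59 TPM. Krt18 had 0 and 2 counts, and Epcam 0 in both. The part of these cell types in the levels below was not tested.

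Of the 10 genes, 4 were detected in both libraries: Cdh2, Ctnna1, Llgl1 and Prkci. Among all protein-coding gene rows the same was true of 30.4%. A further 5 genes, Pard3, Crb2, Mpp5, Numb and Numbl, were detected in replicate 2 alone, as were 9.79% of protein-coding rows, and Pard6b had 0 counts in both. No member was detected in replicate 1 alone, beside 6.30% of protein-coding rows.

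**Figure D1:**
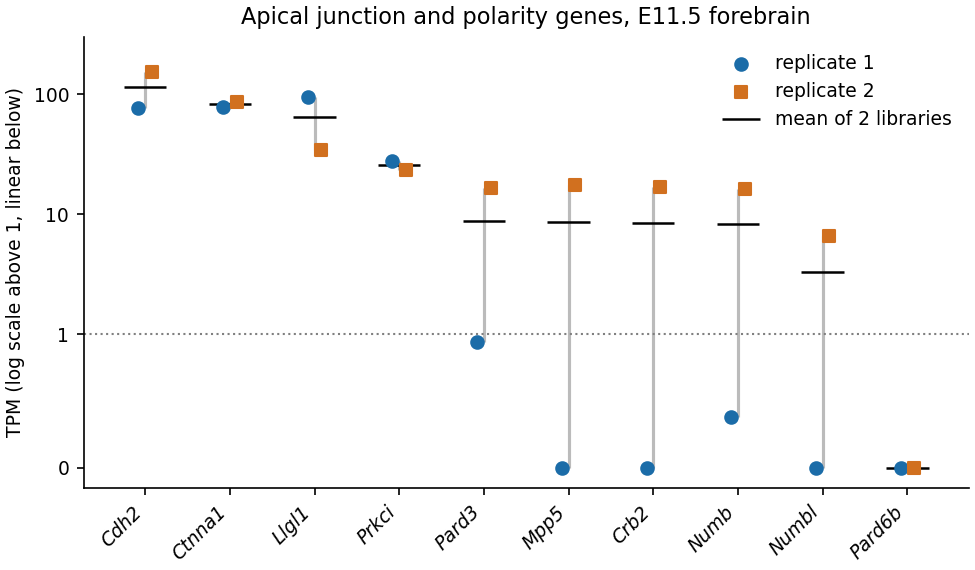
Level of each gene in TPM (vertical axis, log scale above 1 and linear below) in replicate 1 (circles) and replicate 2 (squares), with the mean of the 2 libraries as a bar and the detection limit of 1 TPM dotted. The 4 genes on the left lie above 20 TPM in both libraries, the next 5 lie above 5 TPM in replicate 2 and below 1 in replicate 1, and Pard6b is at 0 in both.

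Cdh2 encodes N-cadherin, the adhesion molecule of the belt. Cdh2 (ENSMUSG00000024304.10, chromosome 18, 16588877 to 16809246 on mm10) was at 76.2 and 151 TPM, from 6883 and 13303 counts, which is 114 ± 53.2 TPM (SD, n = 2). It had the highest mean of the 10 genes and was higher in replicate 2. In CPM (counts per 1000000 counts on gene rows) the ratio was 1.89, with a 95% counting interval of 1.84 to 1.95. Its difference as log2(TPM + 1), taken as replicate 2 less replicate 1, was 0.98, just under the 1 that was counted as 2-fold.

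The same transcript led Cdh2 in both libraries. Cdh2-202 held 67.1% and 60.1% of the gene's TPM, and Cdh2-201, annotated with another first exon, held 32.9% and 29.9%. The annotated coding part of Cdh2-201 has 906 codons and that of Cdh2-202 has 849. The third transcript, Cdh2-203, is annotated as a retained intron. It had 0 counts in replicate 1 and 1092 in replicate 2, which is 10% of the TPM there.

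Ctnna1 encodes alpha-E-catenin, which connects the cadherin and beta-catenin complex to actin. Ctnna1 (ENSMUSG00000037815.6, chromosome 18, 35118859 to 35254779) was at 78.3 and 86.2 TPM from 6305 and 6884 counts, or 82.3 ± 5.63 TPM (SD, n = 2). Of the members at or above 1 TPM it differed least between the libraries, by 0.14 on the log2(TPM + 1) scale. The tables hold 1 transcript for it. It shares 95 exon bases with Lrrtm2 on the opposite strand, which had 0 counts in both. The TPM values of Cdh2 and Ctnna1 were close in replicate 1, and in replicate 2 Cdh2 was the higher.

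Of the Par complex, the kinase gene was read evenly, the scaffold gene mainly in replicate 2, and the Par6 gene chosen here not at all. Prkci encodes atypical protein kinase C iota, which phosphorylates Lgl, Par3 and Numb. Prkci (ENSMUSG00000037643.10, chromosome 3, 30995747 to 31052959) was at 27.5 and 23.4 TPM from 2839 and 2384 counts, or 25.5 ± 2.92 TPM (SD, n = 2), a log2 difference of -0.23. Of its 5 transcripts, Prkci-201 held 100% and 99.7% of the TPM.

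Pard3 encodes Par3, the scaffold that recruits Par6 and the kinase to junctions. Pard3 (ENSMUSG00000025812.13, chromosome 8, 127063893 to 127612286) was at 0.94 and 16.7 TPM from 50 and 860 counts, a ratio of 16.8 in CPM with a counting interval of 12.7 to 22.9. The leading transcripts by counts differed between the libraries, and Pard3-209 had counts in both. Of 28 annotated transcripts, those with counts in replicate 1 were Pard3-212 with 30, Pard3-209 with 11.6 and Pard3-227 with 8.37. In replicate 2 they were Pard3-209, with 25 exons and 1334 coding codons, at 700 counts, and Pard3-208, a non-coding transcript of 746 bases, at 160. That short transcript made 66.9% of the gene's TPM in replicate 2 from 18.6% of its counts, and the longer Pard3-209 stood at 5.52 TPM.

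Pard6b encodes Par6 beta, which links Par3, the kinase and Cdc42. Pard6b (ENSMUSG00000044641.7, chromosome 2, 168081004 to 168101203) had 0 counts in both libraries. With 3 counts set in place of the 0, its level would be 0.110 CPM in replicate 1 and 0.107 CPM in replicate 2. The upper ends of its 95% counting intervals were 0.135 and 0.132 CPM. Those limits cover counting error in these libraries and not the tissue.

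The Crumbs genes Crb2 and Mpp5 were read in replicate 2 only. Crb2 encodes a transmembrane protein of the apical membrane, and Mpp5 encodes Pals1, the scaffold bound to its tail. Mpp5 (ENSMUSG00000021112.8, chromosome 12, 78748907 to 78840714) had 0 and 2083 counts, which is 0 and 17.4 TPM. With 3 counts set in place of the 0, it was 680-fold higher in replicate 2 in CPM, a value that leaves out the counting error of replicate 2. All its counts fell on its single transcript. Crb2 (ENSMUSG00000035403.8, chromosome 2, 37776249 to 37799103) had 0 and 948.6 counts, or 0 and 16.8 TPM, and was 310-fold higher in replicate 2 in CPM when set in the same way.

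The level of Crb2 depended on a short transcript. Crb2-201, with 13 exons and 1282 coding codons, held 89.9% of the counts in replicate 2 but 36.5% of the TPM, at 6.13. Crb2-202, a non-coding transcript of 502 bases at the 3′ end of the gene, held 63.5% of the TPM from 95.4 counts. Crb2 also shares 113 exon bases with Dennd1a on the opposite strand. Dennd1a had 1 count in replicate 1 and 1068 in replicate 2, so it too was read almost wholly in replicate 2. The expected counts of both genes were fractions there that sum to 2017, and reads in the shared bases may not be separable, because the use of strand is not given in the sources used here. In replicate 2 Crb2 was the 1 member whose expected count was not whole to within 0.005.

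Numb and its paralogue Numbl had few counts in replicate 1. Both encode adaptors with a PTB (phosphotyrosine-binding) domain and motifs for endocytic partners. Numb (ENSMUSG00000021224.10, chromosome 12, 83794034 to 83921934) had 28 and 467 counts, a ratio of 16.3 in CPM with a counting interval of 11.2 to 24.8. In TPM the gap was wider, at 0.38 and 16.2, a ratio of 42.7. The deposited effective length of the gene was 3336 bases in replicate 1 and 1298 in replicate 2. Numbl (ENSMUSG00000063160.8, chromosome 7, 27258433 to 27282144) had 0 and 389 counts, or 0 and 6.59 TPM, all of it on Numbl-201. With 3 counts set in place of the 0, it was 127-fold higher in replicate 2 in CPM. Of the 5 members with a mean of 1 to 10 TPM, 3 had 0 counts in 1 library (Mpp5, Crb2 and Numbl), beside 46.0% of all genes at that level.

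Numb is spliced into forms that differ by a short exon in the PTB domain and a longer exon in the proline-rich region, and the latter is known to be included more in progenitors than in neurons. Both exons are shown because the transcripts with counts differed in them. The sequences are from the GENCODE M21 transcripts, 5′ to 3′ on the minus strand of chromosome 12 (GRCm38), at chr12:83825259-83825291 for the PTB exon of 33 bases and chr12:83797197-83797343 for the proline-rich exon of 147 bases.
PTB exon: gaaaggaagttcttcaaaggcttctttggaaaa
Proline-rich exon: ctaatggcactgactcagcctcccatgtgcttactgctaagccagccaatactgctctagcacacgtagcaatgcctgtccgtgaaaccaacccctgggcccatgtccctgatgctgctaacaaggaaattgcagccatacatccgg
Join without the PTB exon: aagagattgaaagctacgggaaagaaagca
Join without the proline-rich exon: ctcctgtgttacaagggactgagtggggtc

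The last 2 lines give 15 bases on each side of the join when the exon is skipped. In replicate 1 all 28 counts fell on Numb-203, which skips the PTB exon, has the proline-rich exon and is annotated as a target of nonsense-mediated decay. In replicate 2 no transcript with the proline-rich exon had counts. Numb-204, which skips both exons and has 593 coding codons, had 278 counts, and Numb-211 had 187. Numb-211 is a coding fragment of 784 bases that has the PTB exon and ends before the proline-rich exon. Over all Numb transcripts of replicate 2, 187 counts lay on those with the PTB exon and 280 on those that skip it. The tables give counts per transcript and not per exon, so they do not show how many reads crossed these joins. Numb-211 made 75.9% of the gene's TPM in replicate 2, and Numb-204 stood at 3.63 TPM.

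**Figure D2:**
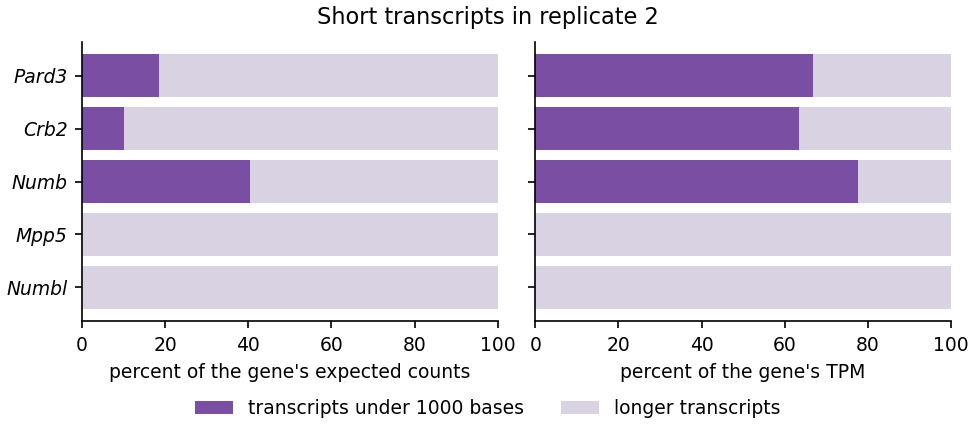
Percent of each gene's expected counts (left) and TPM (right) in replicate 2 that fell to transcripts under 1000 bases (dark) and to longer ones (light), for the 5 genes detected in replicate 2 alone. Short transcripts held 18.6% of the counts of Pard3 and 66.9% of its TPM, and none of the counts of Mpp5 and Numbl.

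Of the 7 members with at least 2 transcripts and at least 1 TPM in replicate 2, the leading transcript was under 1000 bases in 3, Pard3, Crb2 and Numb. Over all such genes of replicate 2 the share was 21.5%. In replicate 1 it was 0 of 3 members, beside 21.5% of genes. For the 3 members with several transcripts that were detected in both libraries, Cdh2, Prkci and Llgl1, the leading transcript was the same in both, as for 63.2% of such genes.

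Llgl1 was the only member with a 2-fold difference toward replicate 1. It encodes Lgl1, a basolateral protein that opposes the apical kinase. Llgl1 (ENSMUSG00000020536.8, chromosome 11, 60699723 to 60714186) was at 95.5 and 34.1 TPM from 8919 and 3157 counts, or 64.8 ± 43.4 TPM (SD, n = 2). Replicate 1 was 2.89-fold higher in CPM, with a counting interval of 2.77 to 3.01, and the log2(TPM + 1) difference was -1.46. Llgl1 shares 64 exon bases with Flii on the opposite strand, and Flii was also higher in replicate 1, at 1255 and 294 counts.

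Most of the Llgl1 level was assigned to a transcript annotated as keeping the last intron. Llgl1-202 held 70.8% and 79.2% of the TPM and Llgl1-201, which splices out that intron of 87 bases (chr11:60713042-60713128), held 29.1% and 20.8%. These transcripts also differ at their 5′ ends, so the split between them need not rest on the intron. The values are per transcript and do not show how many reads lay in the intron or crossed its join. The annotated coding part ends just inside the intron in Llgl1-202, at 1036 codons, and runs on to 1062 codons in Llgl1-201. The 2 lines below, from the GENCODE M21 transcripts on the plus strand (GRCm38), show where they part. They share the first 26 bases, the line of Llgl1-202 lies at chr11:60713016-60713045, and the capitals mark its stop codon.
Llgl1-202: gtggaatatgtgaaggattttctggggTGA
Llgl1-201: gtggaatatgtgaaggattttctgggctct

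Both transcripts were assigned counts in both libraries, in the same order.

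Ranked by mean TPM, the order was Cdh2, Ctnna1, Llgl1, Prkci, Pard3, Mpp5, Crb2, Numb, Numbl and Pard6b. The library values of neighbours overlapped except between Llgl1 and Prkci and between Prkci and Pard3. The means of Pard3, Mpp5, Crb2 and Numb, at 8.81 ± 11.1, 8.68 ± 12.3, 8.40 ± 11.9 and 8.30 ± 11.2 TPM (SD, n = 2), are thus not separable, and each SD exceeds its mean.

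Between the libraries, 6 of the 9 members with a mean of at least 1 TPM differed 2-fold, beside 60.0% of all such genes. By direction, 5 were higher in replicate 2, beside 33.3% of genes, and 1 in replicate 1, beside 26.7%. Those shares by direction are over genes of all levels from a mean of 1 TPM. None was taken within 1 to 10 TPM, where the 5 lie. The count depended on level. All 5 members with a mean of 1 to 10 TPM differed 2-fold, and so did 79.5% of all genes in that range. Of the 4 members with a mean of at least 20 TPM, 1 did, beside 42.0% of genes. These shares of members do not stand far from the background of genes at their level. The median log2 difference of the 9 members was 2.92, against 0.12 over all genes with a mean of at least 1 TPM and 0.75 over genes with a mean of 1 to 10 TPM. With 1 library from each pool, no difference has a replicate check.

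**Figure D3:**
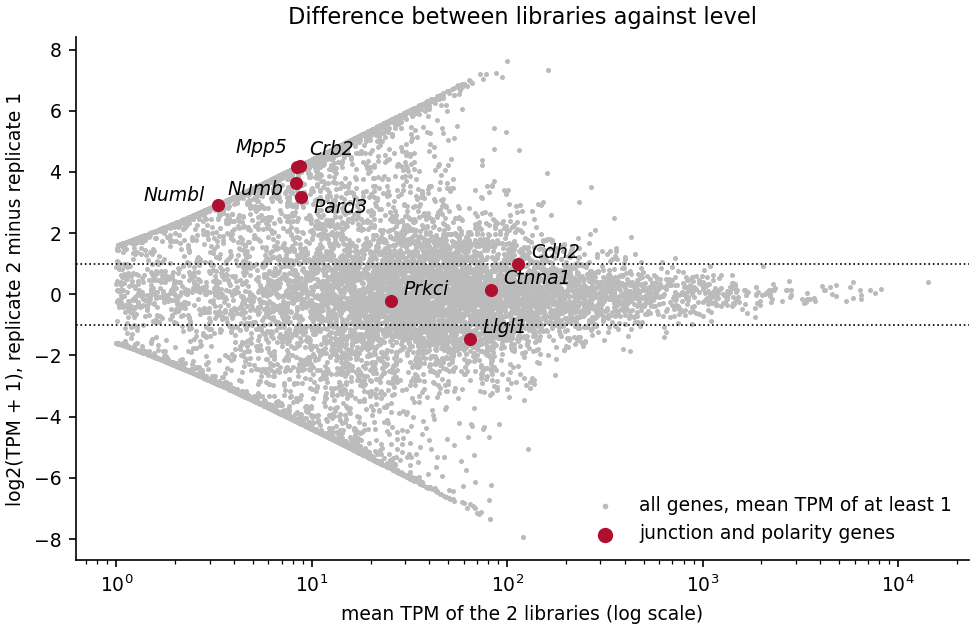
Difference between the libraries in log2(TPM + 1), replicate 2 less replicate 1, against mean TPM (log scale) for all 11107 genes with a mean of at least 1 TPM (grey) and for 9 members (red). Dotted lines mark 2-fold, and the 5 members below 10 TPM lie at or near the upper edge, where a gene has few or no counts in replicate 1.

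Each member was then set beside its paralogues, in TPM. In both libraries, 6 members had the highest level of their family, namely Cdh2, Ctnna1, Pard3, Prkci, Numb and Llgl1. The most possible was 9, because Numb and Numbl share a family. In replicate 1 Pard3 and Numb led from below the detection level, at 0.94 and 0.38 TPM, and in replicate 2 the place of Numb turned on a short transcript. Cdh2 held 78.0% and 82.3% of the summed TPM of the 5 cadherin genes taken as its family. E-cadherin (Cdh1) was at 15.2 and 10.98 TPM, Cdh4, R-cadherin, at 6.26 and 9.04, and Cdh3, P-cadherin, at 0 and 12.6, while Cdh15 had 1 count in all. That sum leaves out other cadherin genes, among them Cdh11 at 39.9 and 32.5 TPM and Cdh6 at 17.6 and 0, so the share depends on the list. Ctnna1 held 90.9% and 77.2% of the alpha-catenin TPM. Ctnna2, the neural alpha-catenin, was at 7.83 and 25.5 TPM and Ctnna3 had 0 counts.

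The Par6 family was led by another member than the one listed. Pard6a was at 109 and 39.3 TPM, or 74.4 ± 49.6 (SD, n = 2), which is 95.7% and 82.9% of the family sum, and Pard6g was at 4.93 and 8.09 TPM. So Par6 genes were read in both libraries although Pard6b had 0 counts. Prkcz, the other atypical kinase gene, was at 11.9 and 0 TPM, and Prkci held 69.8% and 100% of the pair. Pard3b stood below Pard3 in replicate 2, at 2.38 against 16.7 TPM, and had 2 counts in replicate 1. Over transcripts of at least 1000 bases Pard3 was at 5.52 TPM in replicate 2. The counts there were 401 for Pard3b and 860 for Pard3.

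None of the 3 Crumbs genes had counts in replicate 1. In replicate 2 Crb2 led with 76.5% of their TPM, Crb1 was at 5.15 TPM and Crb3 had 0 counts. That share depended on the short transcript of Crb2, which made 10.67 of its 16.8 TPM. Over transcripts of at least 1000 bases Crb2 was at 6.13 TPM there, little above the 5.15 TPM of the whole Crb1 gene. The counts there were 948.6 for Crb2 and 526 for Crb1. Mpp5 was not the highest of the 7 MPP genes, a family of membrane-associated guanylate kinase scaffolds, in either library. Mpp2 led in replicate 1 at 40.5 TPM, with 16.8 in replicate 2, although its counts were close, at 1314 and 1295. Mpp1 led in replicate 2 at 35.9 TPM, with 30.5 in replicate 1. The other four, Mpp3 at 0 and 15.1, Mpp4 at 0.70 and 0.03, Mpp6 at 35.6 and 0.60 and Mpp7 at 0.95 and 6.56 TPM, differed in direction. Numb exceeded Numbl in replicate 2, 16.2 against 6.59 TPM, but over transcripts of at least 1000 bases Numb was the lower, at 3.63 against 6.59 TPM. In replicate 1 the order rested on the 28 counts of Numb. Llgl2 had 0 counts in both libraries beside Llgl1.

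**Figure D4:**
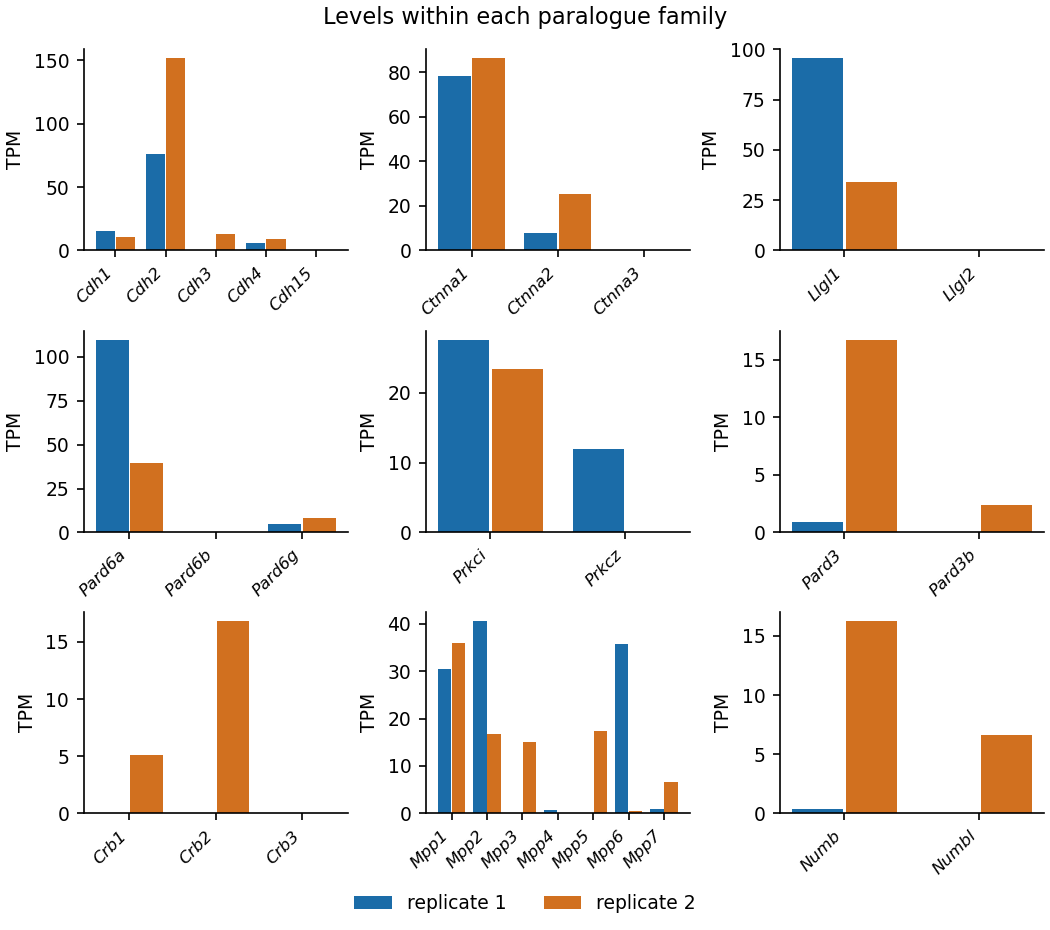
TPM of each gene in 9 paralogue families in replicate 1 (left bar) and replicate 2 (right bar), on a separate axis from 0 for each family. Cdh2, Ctnna1, Llgl1 and Prkci are the tallest in both libraries, Pard6a stands in place of Pard6b at 109 and 39.3 TPM, and the Crumbs and Numb families have bars almost only in replicate 2.

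Of 67 other genes of these junctions and complexes, 43 were detected in both libraries, 6 in replicate 1 alone, 9 in replicate 2 alone and 9 in neither. Of all protein-coding rows 30.4% were detected in both, 6.30% in replicate 1 alone and 9.79% in replicate 2 alone. With a mean of at least 1 TPM, 38 of 58 differed 2-fold, 22 higher in replicate 2 and 16 in replicate 1. Over all such genes the shares were 60.0%, 33.3% and 26.7%, in that order. The median log2 difference of the 58 was 0.28. The groups by role differed in how completely they were read.

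Adherens junction partners were the most complete of the larger groups, with 12 of 14 detected in both libraries. Ctnnb1, which encodes beta-catenin, was at 390 and 387 TPM, or 388 ± 2.02 (SD, n = 2), above Cdh2 and Ctnna1, to which its protein binds. Afdn, encoding the nectin-binding protein afadin, was at 25.8 and 76.3 TPM. Of 7 scaffold and adhesion genes of tight-junction type, 4 were detected in both, led by the adhesion genes Jam3 at 265 and 106 TPM and Jam2 at 40.2 and 10.4.

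In the Par group 7 of 9 were detected in both. The GTPase gene Cdc42, whose product activates the Par6 and kinase pair, was at 458 and 377 TPM, and Rhoa at 50.6 and 126. Of 7 Crumbs complex genes 2 were detected in both, a share near the 30.4% of all protein-coding rows, namely Lin7c at 48.7 and 48.8 TPM and Mpdz, a scaffold with many PDZ domains, at 19.1 and 67.8. These complexes thus held abundant genes, such as Cdc42, and genes at 0 counts, such as Pard6b.

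Among the 8 groups, which leave out the members, the basolateral Scribble module had the lowest share detected in both libraries. Llgl1, a basolateral gene left out as a member, was detected in both. Crb2 and Mpp5 of the Crumbs complex were detected in replicate 2 alone. The place of the module below the Crumbs group thus depends on leaving out the members. Of the 7 genes of the module, 1 was detected in both, beside 30.4% of protein-coding rows. A further 3 were detected in replicate 2 alone, beside 9.79%, and 1 in replicate 1 alone, beside 6.30%. The scaffold gene Scrib had 1 and 2008 counts, or 0.02 and 42.5 TPM, and Dlg1 was at 2.00 and 26.2 TPM. Of the 5 genes of the module with a mean of at least 1 TPM, 4 were 2-fold higher in replicate 2, beside 33.3% of all such genes. The 1 that was 2-fold higher in replicate 1, beside 26.7%, was Dlg2, at 8.28 and 0 TPM, the direction of Llgl1. Dlg2 was named after its values were seen.

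Of 9 genes of the Par1, Par4 and Par5 groups, 5 were detected in both libraries. The highest were the 14-3-3 genes Ywhae at 1154 and 1302 TPM and Ywhaz at 945 and 1062, whose products bind phosphorylated polarity proteins. Of 9 genes for partners of Numb, 7 were detected in both. The clathrin adaptor gene Ap2m1 was at 556 and 549 TPM and Eps15 at 68.4 and 31.7, although Eps15 had more counts in replicate 2, 650 and 1653. All 5 genes of the apical membrane and Fat-Dachsous group were detected in both. Of them 3 were 2-fold higher in replicate 1, beside 26.7% of all genes with a mean of at least 1 TPM. Prom1, whose product prominin lies on apical protrusions, was at 81.1 and 36.7 TPM, and the protocadherin gene Fat4 at 11.1 and 14.8.

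**Figure D5:**
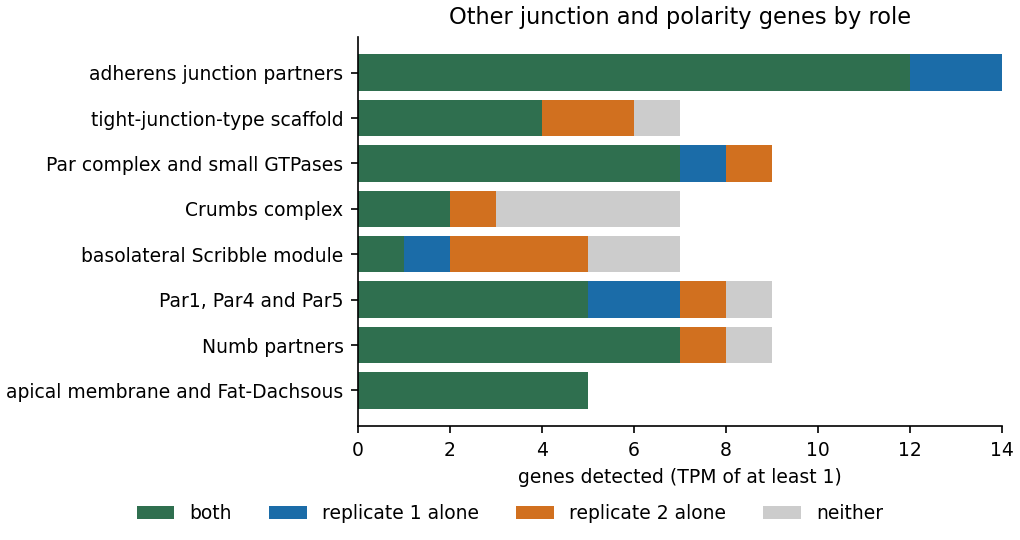
Number of genes that reached the detection level of 1 TPM in both libraries, in replicate 1 alone, in replicate 2 alone or in neither, for 8 groups of junction and polarity genes outside the 10 members. The bar of adherens junction partners is mostly shared, with 12 of 14 in both, and that of the Scribble module is mostly not, with 1 of 7.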

How the data were processed

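The authors deposited a gene and a transcript table per library. Per the file headers these hold expected counts (estimated reads, not always whole), TPM and FPKM; the deposited transcript tables add the percent of each gene's TPM. The deposited posterior limits were read as a score. Text deposited with them names mm10 and annotation M4, while the sources used here give no aligner and no quantifier. Spike-ins are among the rows over which the deposited TPM was scaled, and held 8.44% and 6.56% of it.

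Symbols, transcripts and 1-based coordinates came from GENCODE M21, by ID, for 98.0% of gene rows. Values were computed with Python 3.11.15, and scaling factors with edgeR 4.0.16 and DESeq2 1.42.0 on rounded counts. Differences used log2(TPM + 1), which understates low genes. CPM used gene rows. Intervals are exact (Clopper-Pearson) at 95%, and like the floor of 3 counts cover counting error only, because reads that carry no molecular identifier do not each stand for a separate molecule. The 2-fold count was also run on simulated data with 200 genes changed. No result of that run is given here, so it lends no weight to the 2-fold differences between these libraries. The rule names all members, their paralogues and the 2 highest genes of each role. Members and lists were chosen with earlier results of these data known. Cdh6, Cdh11, Dennd1a, Flii and Lrrtm2 were named after their values were seen.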

Additional observations from a re-analysis of the deposited data

How the results depend on the processing

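No paired analysis was possible because there is 1 group. Leaving out each library in turn gave 4 to 9 members detected (9 without replicate 1, which had 0 counts for Mpp5, Crb2 and Numbl) and 6 to 7 members highest of their family, and no difference between libraries can be had from 1 library. At a TPM of at least 0.1 or an expected count of at least 10, 6 members were detected in both, and 5 with posterior mean TPM or with TPM rescaled over gene rows. With genes of a mean TPM of at least 10 alone, 1 member differed 2-fold in place of 6 and the median log2 difference turned from 2.92 to -0.044, because the 5 low members leave the set. Otherwise 6 members differed 2-fold under each pseudocount, unit and scaling tried, and the median ranged from 1.21 (pseudocount 5) to 4.01 (pseudocount 0.1). Counting transcripts of at least 1000 bases alone, a choice made after seeing the data, put the median at 1.75 and the mean TPM of Crb2, Numb and Pard3 at 3.06, 2.00 and 2.97, against 8.40, 8.30 and 8.81. With 27395002 and 27977544 counts on gene rows, Mpp5, Crb2 and Numbl had 0 counts in replicate 1 and 389 to 2083 in replicate 2.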

Other observations

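The tables hold posterior limits for each TPM, at a level the headers do not give, and these did not always enclose the TPM. In replicate 1 Numb was at 0.38 TPM with limits of 0.54 and 1.46, and Pard3 at 0.94 TPM with limits of 1.15 and 2.50, so both lay below their lower limit. In replicate 2 the limits enclosed both, at 14.8 and 19.4 for Numb and 15.2 and 19.5 for Pard3. Cdh2 in replicate 2, at 151.49 TPM, lay above its upper limit of 150.45, and Llgl1 in replicate 1, at 95.45 TPM, above its upper limit of 95.25. Ctnna1 lay above its upper limit in both libraries, at 78.28 against 78.26 TPM and 86.24 against 86.17. Members with 0 counts lay below their lower limits, which were above 0.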
